A study of Mus musculus with 13 samples.

Results

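The protein kinase D family comprises the 3 genes Prkd1, Prkd2 and Prkd3, which were taken by symbol from the 55487 genes of both deposited count tables. All 3 were tested in each of the 5 comparisons. Poly-A RNA was sequenced from cultured mouse embryonic fibroblasts (MEFs), both as primary cells and after they had become immortal by serial passage. The 6 wild-type (WT) libraries were 3 primary MEFs (pMEFs), numbered 3, 4 and 5, and 3 immortalized lines (iMEFs) with the same numbers. A further 7 libraries carried the genotype label Prkd3-/-, with 3 pMEFs (13, 14 and 15) and 4 iMEFs (13, 13a, 14 and 15). pMEFs were grown in medium with 10% fetal calf serum, cultures that reached senescence were moved to 20%, and WT iMEFs were then grown in 10% again. No drug or transgene was named. The allele behind the label is not given in the sources used here, nor is the relation of lines 13 and 13a, and the age of the embryos is not stated.

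Protein kinases D are serine and threonine kinases that are recruited to membranes by diacylglycerol, the lipid released by phospholipases C, and that are switched on by protein kinases C. They act in the budding of vesicles from the trans-Golgi network, in the nuclear export of class IIa histone deacetylases and in the remodelling of actin. The members share a pair of C1 domains that bind diacylglycerol, a pleckstrin homology domain and a carboxy-terminal kinase domain, and are partly redundant.

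Prkd1 (ENSMUSG00000002688) spans chr12:50341231-50649098 on the minus strand of GRCm38 and has 3653 exonic bases. Prkd2 (ENSMUSG00000041187) spans chr7:16842902-16870464 on the plus strand and has 5051, and Prkd3 (ENSMUSG00000024070) spans chr17:78949405-79020816 on the minus strand and has 11017. No other annotated gene overlaps any of these spans. A read of one member could hardly be counted for another, since the longest exact run that annotated transcripts of Prkd1 and Prkd3 shared was 33 bases, in 1 coding exon of each (chr12:50391337-50391369 and chr17:78971371-78971403, minus strand). It is shown because it bounds how far their reads can be confused:

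Shared by Prkd1 and Prkd3: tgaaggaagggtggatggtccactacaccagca

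Prkd2 shared at most 20 bases with either. Of the 31-base words in the annotated transcripts, 0.0828% of those of Prkd1 and 0.0272% of those of Prkd3 occurred in another member, and none of those of Prkd2 did.

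The 250 bases before the annotated start of each gene (RefSeq, GRCm38.p6) are given here to show the promoter sequence at the first start listed for each gene. The windows are chr12:50649250-50649499 (minus strand), chr7:16842652-16842901 (plus strand) and chr17:79020817-79021066 (minus strand), and capitals mark GGGCGG, the GC box bound by Sp1, on either strand:

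Prkd1: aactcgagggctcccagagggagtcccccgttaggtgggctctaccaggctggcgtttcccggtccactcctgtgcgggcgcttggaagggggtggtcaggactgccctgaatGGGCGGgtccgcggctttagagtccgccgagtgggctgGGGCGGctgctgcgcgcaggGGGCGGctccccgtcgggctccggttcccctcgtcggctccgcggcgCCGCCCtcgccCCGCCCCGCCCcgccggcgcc

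Prkd2: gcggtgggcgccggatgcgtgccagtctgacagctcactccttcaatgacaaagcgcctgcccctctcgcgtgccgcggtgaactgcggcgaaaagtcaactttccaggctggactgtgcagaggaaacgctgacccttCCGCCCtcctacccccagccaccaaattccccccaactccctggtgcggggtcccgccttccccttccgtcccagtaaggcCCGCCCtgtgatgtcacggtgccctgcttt

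Prkd3: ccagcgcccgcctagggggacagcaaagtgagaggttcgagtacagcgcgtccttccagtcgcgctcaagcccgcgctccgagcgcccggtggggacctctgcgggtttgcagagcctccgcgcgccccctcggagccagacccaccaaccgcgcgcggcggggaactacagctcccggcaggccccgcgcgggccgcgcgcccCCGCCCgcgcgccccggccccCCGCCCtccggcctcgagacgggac

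The upstream windows of all 3 were rich in CpG. Prkd3 had 38 CpG and a GC content of 77.6%, Prkd1 30 and 75.6%, and Prkd2 18 and 64.4%, against medians of 6 and 52.4% over 32851 windows of this length, of which 98.1% had fewer CpG than that of Prkd3. The GC box occurred 6 times before Prkd1, a pair of which overlap by a base, and 2 times before each of the others, while 32.7% of all windows held at least 1. The TATA box (TATAAA), the CCAAT box (CCAAT), the E-box (CACGTG) and the cyclic AMP response element (TGACGTCA), searched on both strands, were in none of the 3 windows, and were in 12.4%, 33.9%, 6.02% and 1.55% of all windows. RefSeq lists a second start for Prkd2, whose window overlaps the first and has 19 CpG, 3 GC boxes and 1 CCAAT box, and a second for Prkd3, whose window has 2 CpG and neither box. Counts per gene do not show which start was used.

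Library totals ranged from 35273408 to 100441756 counts, and the members were counted 762 to 6630 times per library, so that counting error alone was 1.23% to 3.62%. Levels are given as normalized read counts relative to library size (CPM) with TMM normalization over the 13 libraries. Replicates differed beyond counting error by 3.57% to 4.81% in WT pMEFs and by 25.1% to 46.9% in iMEFs labelled Prkd3-/-. All 12 fibroblast markers were counted in every group, although Lum went down to 0.0483 CPM in a WT iMEF. They moved with the label: 10 of 12 were lower in labelled than in WT pMEFs (1 passed the thresholds, median Log2FC −0.47) and 11 of 12 in labelled iMEFs (0 passed, median −0.96), and their part in the differences of Prkd3 and Prkd1 by label was not tested. Transcripts of both sexes were found in WT: WT pMEFs had 43.9 to 55.9 CPM of Xist together with 103 to 121 CPM over 4 Y-linked genes, and WT iMEF 3 had 170 CPM of Xist and 0.387 CPM of the Y-linked genes. All 7 libraries labelled Prkd3-/- had at most 0.156 CPM of Xist. WT iMEFs had 56.2 to 170 CPM of Xist. The label, the presence of Xist and the table of counts therefore cannot be told apart in pMEFs or in iMEFs.

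Prkd3, the gene named by the label, was lower in the 7 libraries that carry it but was still counted in all of them. WT pMEFs 3, 4 and 5 had 73.7, 72.2 and 69.2 CPM (71.7 ± 2.32, SD, n = 3). The pMEFs labelled Prkd3-/- had 43.2, 39.7 and 33.6 CPM in clones 13, 14 and 15 (38.8 ± 4.87, n = 3). Every labelled library lay below every WT library, in a comparison where 18.8% of the 20403 genes tested were lower without overlap. The level was 54.8% of that of WT pMEFs, with a 95% interval of 46.4% to 64.8% (Log2FC −0.87, standard error 0.10, edgeR quasi-likelihood test with Benjamini-Hochberg adjustment, adjusted p = 0.0102).

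The thresholds of the study (|Log2FC| of 1 or more with an adjusted p-value under 0.01) were passed by 0 of the 3 members and by 0.765% of all genes in this comparison. At an adjusted p-value under 0.05 without a fold limit, Prkd3 passed, as did 6.04% of all genes (3.48% lower). Without WT pMEF 3, 4 or 5 its adjusted p was 0.0787, 0.0798 or 0.0623, and leaving out a labelled pMEF kept it at 0.0202 or below. DESeq2 gave a Log2FC of −0.87 with an adjusted p of 9.4e-09, and in a joint fit of all 13 libraries the adjusted p was 0.0516.

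Among the immortalized lines, Prkd3 was at 73.6, 93.8 and 79.6 CPM in WT iMEFs 3, 4 and 5 (82.3 ± 10.3, n = 3). The lines labelled Prkd3-/- had 61.0, 49.1, 60.3 and 43.8 CPM in 13, 13a, 14 and 15 (53.6 ± 8.48, n = 4). Here too the groups did not overlap, as for 4.21% of the 19683 genes tested that were lower in this way. The level was 65.2% of that of WT iMEFs, with a 95% interval of 47.8% to 89.0%, and the difference did not pass the test (Log2FC −0.62, standard error 0.19, edgeR adjusted p = 0.661). Only 0.0406% of all genes passed the thresholds in this comparison.

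The highest Prkd3 level among the 7 labelled libraries, 61.0 CPM in iMEF 13, lay below the lowest among the 6 WT libraries, 69.2 CPM in pMEF 5. The share of all genes that separate in this way over the 13 libraries was not counted, so this separation cannot be judged against it. In raw counts the labelled libraries held 1196 to 4294 reads of Prkd3, against 3869 to 6630 in WT. The loss of single exons, or of a protein from a transcript that persists, cannot be read from counts per gene.

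**Figure D1:**
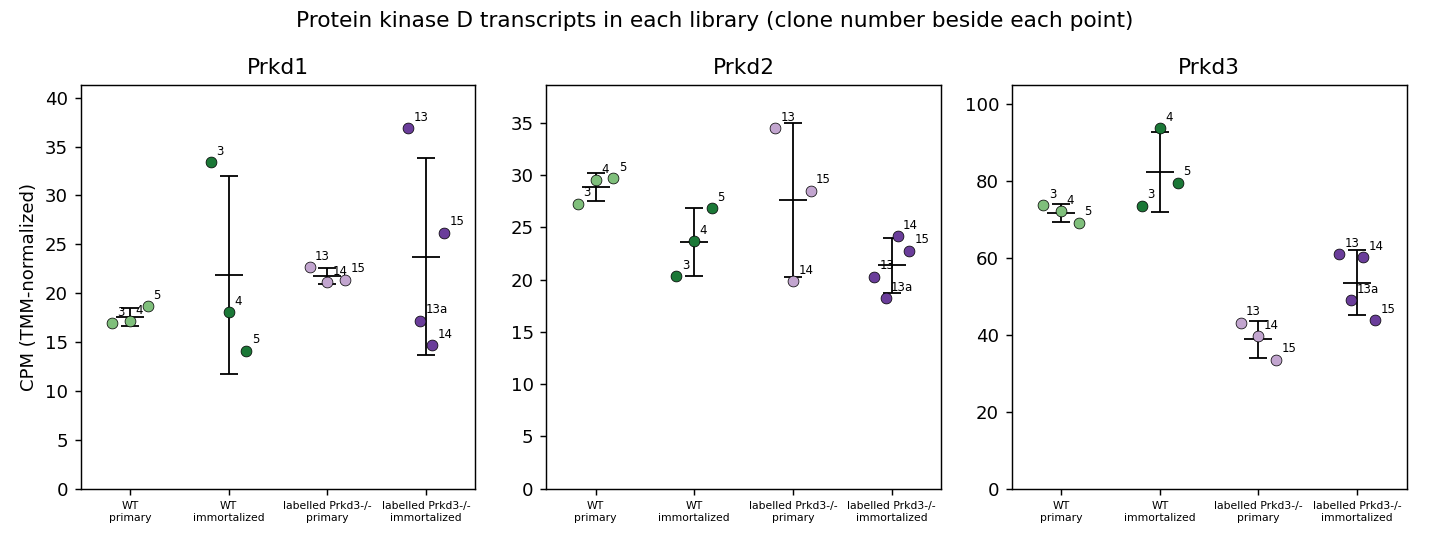
Level of each protein kinase D gene in the 13 libraries (vertical axes, CPM with TMM normalization, from 0), by group on the horizontal axes. Points are libraries with their clone number, and bars are the mean and SD. For Prkd3 the 7 labelled libraries lie between 33.6 and 61.0 CPM, all below the WT libraries. The share of all genes that do so over the 13 libraries was not counted. Prkd1 spreads widely among immortalized lines.

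The paralogs were compared across the label as well. Prkd1 was at 16.9, 17.1 and 18.7 CPM in WT pMEFs 3, 4 and 5 (17.6 ± 0.953, n = 3). In the pMEFs labelled Prkd3-/- it was at 22.7, 21.2 and 21.4 CPM in clones 13, 14 and 15 (21.7 ± 0.814, n = 3). All 3 labelled pMEFs were above all WT pMEFs, as were 15.5% of the genes tested. The fit gave a Log2FC of 0.33 (standard error 0.08, 95% interval 0.14 to 0.52), which did not pass (edgeR adjusted p = 0.0652). DESeq2 gave an adjusted p of 0.0424, and without labelled pMEF 14 that of edgeR was 0.0114, against 0.0927 to 0.307 without each of the other libraries.

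Prkd2 did not separate by label. It was at 27.3, 29.5 and 29.7 CPM in WT pMEFs (28.8 ± 1.36, n = 3) and at 34.5, 19.8 and 28.5 CPM in labelled pMEFs 13, 14 and 15 (27.6 ± 7.36, n = 3). Labelled pMEF 13 was the highest and 14 the lowest of all 6 (Log2FC −0.05, standard error 0.19, 95% interval −0.51 to 0.42, edgeR adjusted p = 0.911). Without pMEF 14 the Log2FC was 0.14.

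Between immortalized lines, neither paralog differed by label beyond the spread of the lines. Prkd1 was at 33.4, 18.1 and 14.1 CPM in WT iMEFs 3, 4 and 5 and at 36.9, 17.2, 14.7 and 26.2 CPM in the labelled iMEFs 13, 13a, 14 and 15, which covers the same range. The Log2FC was 0.12 (standard error 0.42, 95% interval −0.87 to 1.11, edgeR adjusted p = 0.959). Prkd2 was at 20.3, 23.7 and 26.8 CPM in WT iMEFs and at 20.3, 18.2, 24.2 and 22.8 CPM in the labelled lines (Log2FC −0.14, standard error 0.20, 95% interval −0.60 to 0.32, edgeR adjusted p = 0.883). An increase of either paralog in labelled lines up to these upper limits could not be told from no change.

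The comparison of immortalized with primary cells within each label gave no call for any member. In WT cells 1.82% of the 19836 genes tested passed the thresholds, or 0 genes with the embryo number as a block, and in labelled cells 0% of 20298 did (1331 had an unadjusted p under 0.05 in edgeR and 190 passed in DESeq2). Prkd2 was lower in all 3 WT iMEFs than in all WT pMEFs, as were 17.3% of genes. Mean levels were 28.8 CPM in pMEFs and 23.6 CPM in iMEFs, and edgeR gave a Log2FC of −0.29 (standard error 0.12, adjusted p = 0.276). Against its own pMEFs, Prkd2 differed by a log2 ratio of −0.42, −0.32 and −0.15 in WT lines 3, 4 and 5.

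In labelled cells Prkd2 had means of 27.6 and 21.4 CPM before and after immortalization (Log2FC −0.38, standard error 0.23, edgeR adjusted p = 0.832). Lines 13, 13a and 15 were below the pMEFs of the same clone number (13, 13 and 15) by log2 ratios of −0.77, −0.92 and −0.32, and line 14 was above by 0.28.

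Macrophage markers moved with the state. The summed level of 12 of them was 1428 to 1472 CPM in WT pMEFs and 56.5 to 136 CPM in WT iMEFs. On immortalization in WT, 12 of 12 had a negative Log2FC and 8 passed the thresholds. None of the 12 was at 0 in every library of a group, but several were at 0 in at least a single labelled iMEF. In labelled pMEFs 13, 14 and 15 the sum was 163, 2026 and 392 CPM, beside 34.5, 19.8 and 28.5 CPM of Prkd2. Mean Prkd2 was 28.8 CPM in WT pMEFs and 23.6 CPM in WT iMEFs. Of 8 endothelial markers, the 6 tested in WT were all lower in iMEFs (1 passed, median Log2FC −2.86). Their sums were 18.1 to 22.5 CPM in WT pMEFs and 2.37 to 4.82 CPM in WT iMEFs. Schwann and neural crest markers were lower in 5 of 5 tested cases (0 passed, median −1.34). Epithelial markers were lower in 2 of 2 (0 passed, median −3.28) and skeletal muscle markers in 2 of 3 (0 passed, median −2.96). Each of these lists holds 8 genes, not all counted enough to be tested. Sums in WT pMEFs were 5.04 to 5.32 CPM (Schwann and neural crest), 2.46 to 2.79 (epithelial) and 23.7 to 27.3 (skeletal muscle). In WT iMEFs they were 0.596 to 3.18, 0.258 to 0.660 and 2.14 to 7.28 CPM, in the same order. For the macrophage markers, the labelled iMEFs had 17.8, 328, 13.1 and 19.6 CPM in 13, 13a, 14 and 15. The part of these markers in the members' values was not tested, and in bulk RNA fewer cells of a type and less RNA per cell cannot be told apart.

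Prkd3 was higher in all 4 labelled iMEFs than in the 3 labelled pMEFs, as were 4.19% of genes. With means of 38.8 and 53.6 CPM, edgeR gave a Log2FC of 0.45 (standard error 0.19, adjusted p = 0.753), and each line lay above the pMEFs of its clone number by a log2 ratio of 0.18 to 0.60. In WT the means were 71.7 and 82.3 CPM with overlapping groups (Log2FC 0.20, standard error 0.11, edgeR adjusted p = 0.391), with log2 ratios of −0.00, 0.38 and 0.20 for lines 3, 4 and 5.

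Prkd1 was the member that varied most between lines. WT iMEF 3 was at 33.4 CPM against 16.9 in its pMEFs, a log2 ratio of 0.98, and WT iMEF 5 was at 14.1 against 18.7, a log2 ratio of −0.40. Labelled line 13 was at 36.9 CPM against 22.7 in the pMEFs of its clone number (log2 ratio 0.70), whereas line 13a with the same clone number was at 17.2 (log2 ratio −0.40). The coefficient of variation of Prkd1 was 46.5% in WT iMEFs and 42.4% in labelled iMEFs, against 5.42% and 3.74% in the respective pMEFs. The fits gave a Log2FC of 0.31 (standard error 0.32, edgeR adjusted p = 0.649) in WT and 0.11 (standard error 0.32, edgeR adjusted p = 0.963) in labelled cells.

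The effect of immortalization was then compared between the labels with an interaction term over all 13 libraries. The difference in Log2FC, labelled minus WT, was −0.19 for Prkd1 (standard error 0.49), −0.08 for Prkd2 (0.27) and 0.26 for Prkd3 (0.22), and none passed (edgeR adjusted p = 1.00 for each). None of the 21197 genes tested, 0%, passed at an adjusted p-value under 0.05, while 841 had an unadjusted p under 0.05 and DESeq2 called 37.

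**Figure D2:**
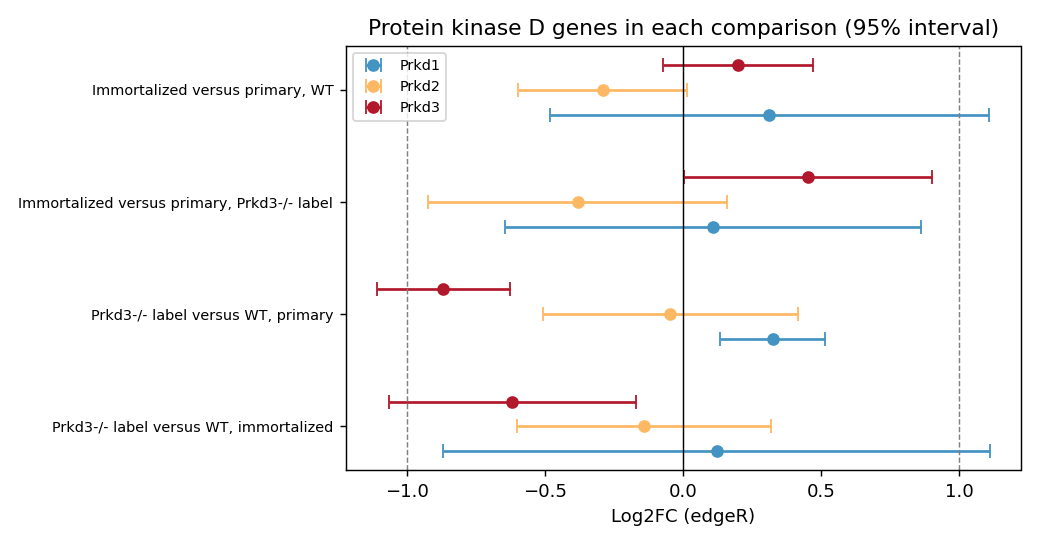
Log2FC of the 3 genes in 4 comparisons (horizontal axis, edgeR), with bars for the 95% interval and dashed lines at −1 and 1. Intervals are not adjusted for the number of genes tested, and no member passed the thresholds. That of Prkd3 lies below 0 in both comparisons of labelled with WT cells, with point estimates of −0.87 and −0.62. Those of Prkd1 between labelled and WT pMEFs and of Prkd3 on immortalization in labelled cells lie above 0. The comparisons share libraries in pairs, so the rows are not independent.

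To compare the genes with each other, CPM was divided by exon length in kilobases. Prkd3 had the most transcript per kilobase in WT pMEFs, with means of 6.51 CPM per kilobase, against 5.71 for Prkd2 and 4.81 for Prkd1, and the order was the same in all 3 libraries. In labelled pMEFs Prkd3 had the least, with 3.52 against 5.47 and 5.95, again in all 3. Its share of the family sum was 38.2% ± 1.83 in WT pMEFs and 23.7% ± 3.09 in labelled pMEFs (n = 3 each), and these shares did not overlap. In iMEFs the shares were 41.5% ± 6.96 (WT, n = 3) and 31.7% ± 5.94 (labelled, n = 4), and they overlapped.

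The family sum was 17.0 ± 0.279 CPM per kilobase in WT pMEFs, 14.9 ± 1.84 in labelled pMEFs, 18.1 ± 1.72 in WT iMEFs and 15.6 ± 2.95 in labelled iMEFs. With these exon lengths, labelled pMEF 13, with 17.0 CPM per kilobase, and labelled iMEF 13, with 19.6, lay within the WT range. Over the 13 libraries, Prkd3 led in 6, Prkd1 in 6 and Prkd2 in 1.

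The order between genes depends on the length used. The exonic bases of Prkd3 hold alternative ends, and its longest coding transcript has 5884 bases (Prkd1 3653, Prkd2 3628). With these lengths, an alternative chosen after seeing the data, Prkd3 led in 11 of 13 libraries, and its share was 48.9% in WT and 32.9% in labelled pMEFs. The 2 exceptions were labelled pMEFs 13 and 15, where Prkd2 led. The family sum depends on the length too. Labelled pMEF 13 then had 6.21, 9.50 and 7.34 CPM per kilobase of Prkd1, Prkd2 and Prkd3, which in sum lay below the WT range. WT pMEF 3, the lowest WT library in sum, had 4.63, 7.52 and 12.5. Labelled iMEF 13 stayed within the WT range.

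**Figure D3:**
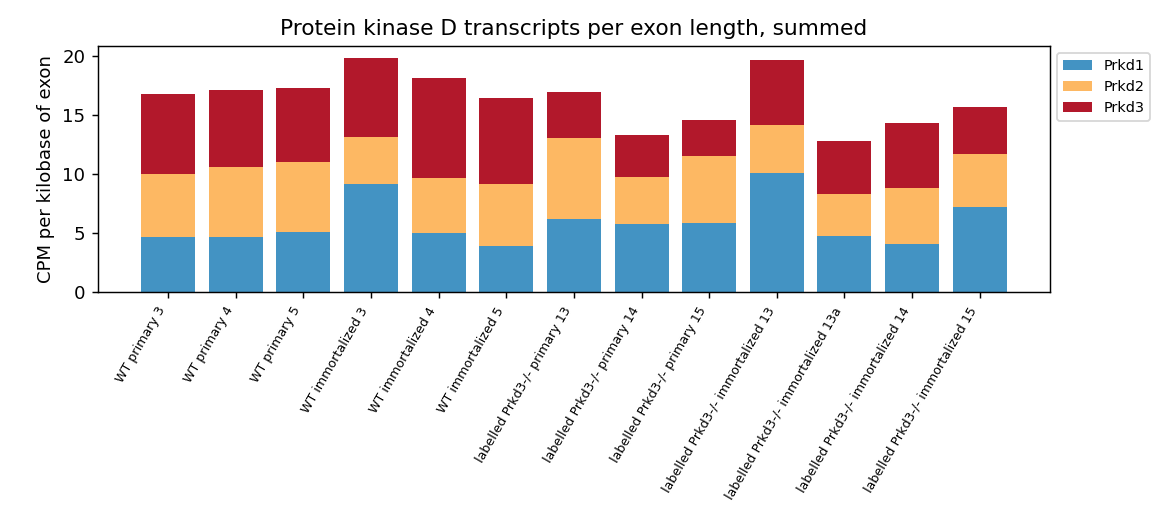
CPM per kilobase of exon (vertical axis, from 0) of Prkd1, Prkd2 and Prkd3, stacked for each of the 13 libraries. The Prkd3 segment is 6.28 to 6.69 in WT pMEFs and 3.05 to 3.92 in labelled pMEFs, and the Prkd1 segment is tallest in WT iMEF 3 and labelled iMEF 13.

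Genes beside Prkd3 on chromosome 17 were read in the same fits, 5 on each side. In pMEFs the 9 that were tested had a median Log2FC of −0.02 between labelled and WT cells. Cebpz, Cebpzos and Ndufaf7, whose starts lie 12.3 to 32.9 kb below that of Prkd3, had Log2FC of 0.02, −0.02 and 0.01. Qpct, the next tested gene on the other side, which encodes glutaminyl cyclase, had −1.20 (standard error 0.26, edgeR adjusted p = 0.0516), and Eif2ak2, the double-stranded RNA-dependent kinase, had −0.62 (standard error 0.13, adjusted p = 0.0439). None of the 9 passed the thresholds. In iMEFs the median of the 10 neighbours was −0.37, with Qpct at −1.88 (standard error 0.99) and Cdc42ep3 at −0.74 (standard error 0.43), and none passed. Cebpz, Cebpzos and Ndufaf7 were at 0.29, 0.02 and −0.03. The neighbour after Cdc42ep3 was at −0.77, but its span overlaps that of Cdc42ep3, so they are not separate places in this median.

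**Figure D4:**
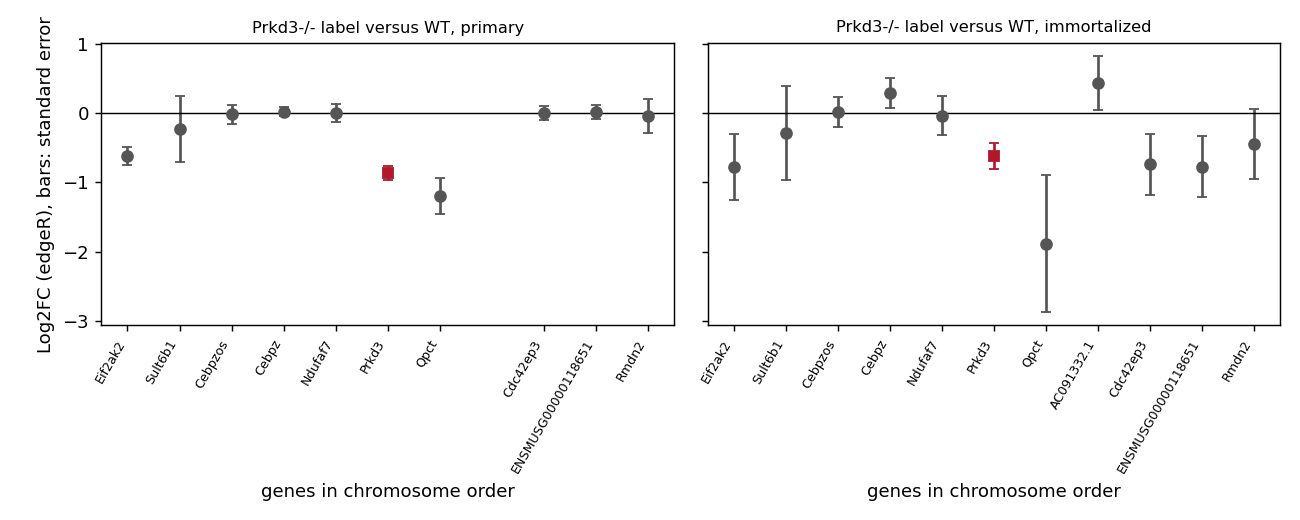
Log2FC of labelled against WT cells (vertical axis, edgeR) for Prkd3 (square) and the 5 genes on each side (circles), in chromosome order and not to scale. Bars are standard errors, and the gene missing on the left was not tested in pMEFs. Prkd3 at −0.87 sits between Ndufaf7 at 0.01 and Qpct at −1.20 in pMEFs.

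None of the tested neighbours of Prkd1 and Prkd2 passed the thresholds in any comparison. In labelled pMEFs, Ptgir, the prostacyclin receptor gene near Prkd2, had a Log2FC of −1.10 (standard error 0.15, edgeR adjusted p = 0.0157). The 8 tested neighbours of Prkd1 had a median of 0.53, all of them positive.

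Whole chromosomes were read as log2 ratios to the pMEFs of the same label. In WT iMEF 3 and labelled iMEF 13, where Prkd1 was highest, the median log2 ratio of chromosome 12 to the pMEFs of that label was 0.08 and 0.09, against 0.90 and 0.73 for Prkd1 and −0.96 and 0.51 for the median of 7 of its neighbours. The largest shift of a member's chromosome was −0.61 for chromosome 7 in labelled iMEF 14, where Prkd2 was at −0.15 and its neighbours at −0.35. In labelled iMEFs 13a and 15 chromosome 7 was at −0.17 and −0.14, with Prkd2 at −0.58 and −0.27, and in labelled iMEF 14 chromosome 17 was at 0.18, with Prkd3 at 0.68. The other medians of members' chromosomes lay between −0.11 and 0.09.

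Over the 13 libraries, log2 CPM of the members had a Pearson r of −0.34 for Prkd1 with Prkd2, −0.23 for Prkd1 with Prkd3 and 0.03 for Prkd2 with Prkd3, given as a description. After centring each table on its own mean, these were −0.29, −0.01 and −0.38. Among 15800 genes, those closest to Prkd1 were Gapvd1 (r = 0.94), Gm16059 (0.93) and Csnk1e (0.93). For Prkd2 they were Ggn (0.93), Zfp667 (0.91) and C230034O21Rik (0.90). Zfp960 (0.95), Lysmd2 (0.92) and Ift57 (0.90) were closest to Prkd3, and after the same centring these were 0.88, 0.85 and 0.62. The libraries share clones and tables, so r has no error attached.

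The pathway around the family was described with 4 lists: 9 protein kinase C isoforms, 10 phospholipases C, 10 diacylglycerol kinases, and 26 substrates and partners. The isoform list holds those that switch on protein kinase D and also the other protein kinase C isoforms. Phospholipases C make the lipid signal of protein kinase D, and diacylglycerol kinases remove it. In WT cells 3 of the 53 genes tested passed the thresholds on immortalization, against 1.82% of all genes, and all were lower. Plcb2, a phospholipase C of blood cells, averaged 2.27 CPM in pMEFs and 0.113 CPM in iMEFs (edgeR Log2FC −4.31 with a standard error of 0.33, adjusted p = 0.00253). Mef2c, a transcription factor held in check by class IIa histone deacetylases, fell from 35.3 to 7.10 CPM (edgeR Log2FC −2.31 with a standard error of 0.22, adjusted p = 0.00502). Hdac9, one of these deacetylases, fell from 11.5 to 5.32 CPM (edgeR Log2FC −1.12 with a standard error of 0.12, adjusted p = 0.00738). In the same comparison macrophage markers were lower in 12 of 12 cases (8 past the thresholds) and endothelial markers in 6 of 6 tested (1 past). Schwann and neural crest markers were lower in 5 of 5, epithelial markers in 2 of 2 and skeletal muscle markers in 2 of 3 tested (0 past in each). The part of all these markers was not tested.

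By list, 0 of 8 protein kinase C isoforms passed (median Log2FC −0.13), and 2 were lower at an adjusted p-value under 0.05, as were 4.57% of all genes. Of these, Prkch, an isoform that responds to diacylglycerol without calcium, was at 7.33 CPM in WT pMEFs and 0.629 CPM in WT iMEFs (Log2FC −3.54, edgeR adjusted p = 0.0128). Among phospholipases C, 1 of 10 passed, lower (median −0.10). No diacylglycerol kinase of 9 passed (median −0.18), and the smallest p belonged to Dgkd (Log2FC −0.62, adjusted p = 0.0685). Substrates and partners gave 2 of 26 lower and 0 higher (median 0.06). Over all genes tested 1.82% passed and the median was 0.04.

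In the labelled cells 0 of 53 tested list genes passed on immortalization, with medians of −0.23, −0.01, 0.08 and 0.01 for the lists in the same order and 0.07 over all genes. Plcb2 had a Log2FC of −3.92 (standard error 0.93, edgeR adjusted p = 0.473), Prkch −2.35 (0.76, adjusted p = 0.663), Dgkg 1.54 (1.07, adjusted p = 0.843) and Cert1, the ceramide transporter phosphorylated by protein kinase D, 0.44 (0.22, adjusted p = 0.790). Mef2c averaged 20.7 CPM in labelled pMEFs and 20.2 in labelled iMEFs. The difference from its fall in WT did not pass the interaction test (2.28, standard error 0.62, edgeR adjusted p = 1.00).

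**Figure D5:**
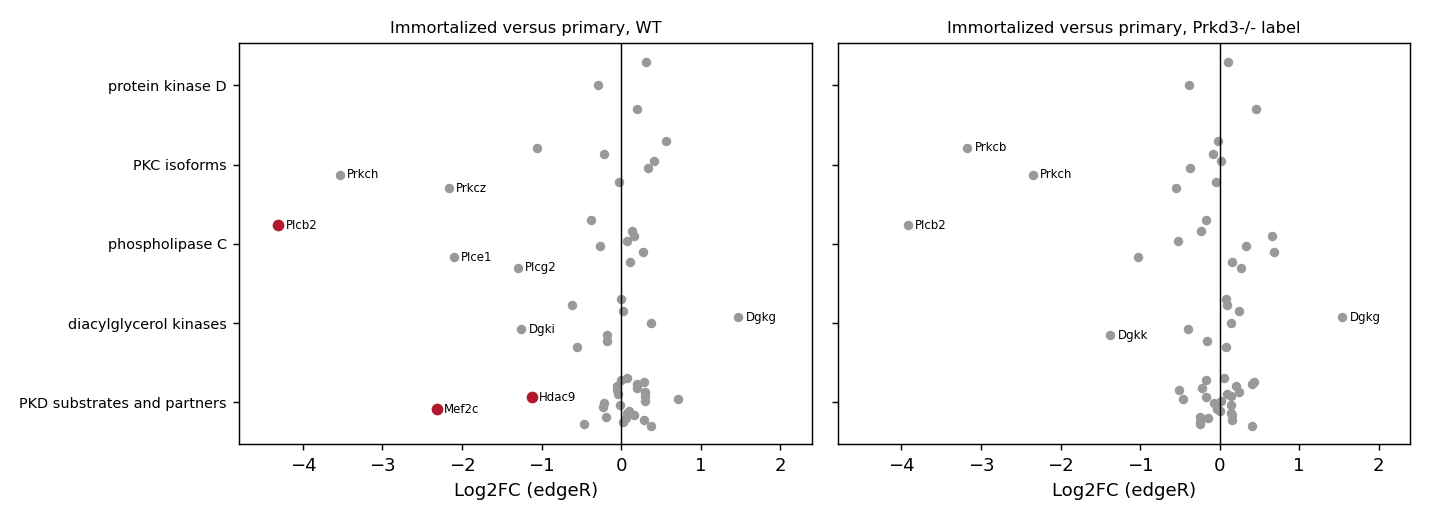
Log2FC of immortalized against primary cells (horizontal axis, edgeR) for the tested genes of the family and the 4 lists, in WT (left) and labelled cells (right). Red points passed both thresholds, which only Plcb2, Mef2c and Hdac9 did, in WT. The 3 protein kinase D genes lie between −0.38 and 0.45.

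Between labelled and WT pMEFs, 0 of 54 list genes passed the thresholds, with list medians of 0.02, −0.28, −0.15 and −0.03 against 0.01 over all genes. The smallest p-values belonged to Prkci (Log2FC 0.24, edgeR adjusted p = 0.264), Plcb2 (−2.65, adjusted p = 0.0110), Dgkk (2.15, adjusted p = 0.0383) and Mef2c (−0.75, adjusted p = 0.0470). The macrophage markers, at 1428 to 1472 CPM in WT, were at 163, 2026 and 392 CPM in labelled pMEFs, and their part in the value of Plcb2 was not tested. Between the immortalized groups 0 of 51 passed, and the smallest p-values among phospholipases C, diacylglycerol kinases and substrates were those of Plcd1 (Log2FC −0.49), Dgkz (0.47) and Dlc1 (−1.20, standard error 0.36, edgeR adjusted p = 0.642).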

How the data were processed

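Poly-A RNA of 13 MEF cultures was sequenced in pairs. Per the labels and the study's methods, the authors mapped WT reads to mm10 with STAR 2.7.10a, used SAMtools 1.18 and counted pairs on Ensembl GRCm38 genes with featureCounts of Subread 2.0.6. Per the file header, the WT counting set no strand option and assigned a pair to every gene it overlapped. The options used for the labelled table are not given in the sources used here, but its 55487 genes and their lengths are the same. The authors deposited raw counts per gene in 2 tables, which were joined on the gene identifier and used as they stand. No sample column was left out.

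Each comparison was fitted on its own libraries with edgeR 4.0.16 in R 4.3.3 (TMM, low counts removed by filterByExpr, robust quasi-likelihood test, Benjamini-Hochberg adjustment over all genes tested). A gene was called at |Log2FC| of 1 or more with an adjusted p-value under 0.01, as in the study, and the interaction at 0.05. Standard errors were derived from the Log2FC and its F statistic, with t-based 95% intervals. CPM is given as mean ± SD. The floor of 3 counts lay at 0.0299 to 0.0850 CPM and covers counting error only, since copies of a molecule are not independent. p-values measure the spread between these cultures. In WT pMEFs that spread was 3.57% to 4.81% beyond counting error, against 9.55% to 21.9% in labelled pMEFs. Each WT pMEF library also held Xist and Y-linked transcripts together, so the 3 may not stand for independent embryos, which was not tested. The members, lists and tests were chosen with earlier results of these data known. Genes named are the 3 members, the called genes of each list or else the one with the smallest p, 5 tested neighbours on each side (summarised), the 3 genes most like each member, and the macrophage markers as a sum. The Prkch, Cdc42ep3, Xist and Mef2c values outside that rule were added after their values were seen. A single gene that the rule names is not reported here.

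Primary and immortalized WT cultures of a number are from the same embryo per the study, so the numbers pair them by source, although each WT pMEF library held Xist and Y-linked transcripts together. For the labelled cultures the pairing rests on the clone numbers alone. Same-numbered libraries nevertheless deviated together (r over 0.1) in only 1 of 7 pairs, with r from −0.28 to 0.14. In 2 of 7 pairs the r with the same-numbered pMEFs was the highest of those compared.

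The fits were run on simulated counts with 200 genes changed 4-fold and a dispersion of 0.02 for every gene and group. All 200 were recovered in each comparison, with 0 or 1 false calls, but 12 for the interaction. Changes as small as those of the members, and groups of unequal spread, were not simulated. Alternatives used DESeq2 1.42.0 and limma 3.58.1. Upstream sequences and motifs came from RefSeq, and transcripts from GENCODE.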

Additional observations from a re-analysis of the deposited data

How the results depend on the processing

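In replicate-block fits by clone number, edgeR called 0 genes in WT (361 without the block), with 2784 at an unadjusted p under 0.05, and no call of a member changed. No paired analysis was possible because WT and labelled clones share no number in the comparisons across labels. In WT, calls numbered 1361 with DESeq2, 157 with at least 10 counts in every library, 198 with limma, 0 in the joint fit (2199 at an unadjusted p under 0.05) and 1045 at an adjusted p under 0.05, and 48 to 743 without each library. In labelled cells, DESeq2 gave 190 and the joint fit 1. Across labels in pMEFs, calls numbered 836 (DESeq2), 335 (no filter), 88 (at least 10 counts), 36 (joint fit) and 1233 (adjusted p under 0.05), against 156, and 2 to 1456 without each library. In iMEFs they numbered 178, 5 with limma, 55 in the joint fit and 13 at 0.05, against 8, and 0 to 10. The interaction gave 37 with DESeq2 and 0 to 2 without each library.

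Prkd3 in labelled pMEFs kept a Log2FC of −0.94 to −0.78 without each library and passed at −0.87 only under the looser threshold. Signs turned for Prkd1 on immortalization, between −0.12 and 0.55 in WT and between −0.17 and 0.28 in labelled cells without each library, and at −0.00864 with lines 13 and 13a summed. They also turned for Prkd2 in pMEFs (−0.23 to 0.14), Prkd1 in iMEFs (−0.17 to 0.54), Prkd2 in iMEFs with library size alone (0.00989), and in the interaction for Prkd1 (−0.48 to 0.22) and Prkd2 (−0.27 to 0.11, and 0.0473 with library size alone). None of these was called, and the cause was not tested. Over all values and alternatives, 310 kept their direction and side of the threshold (or stayed within 1.5 times, for counts of calls), 34 counts of calls moved further, 11 values turned and 1 passed. With the longest coding transcript as length, 8 of 12 shares of the family moved by more than 1 SD. Counts per gene cannot show the use of exons or starts.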
